A study of Rattus norvegicus with 6 samples.

Results

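Toll-like receptors and a few of their partners were described in RNA from rat liver, as 10 genes chosen by symbol: Tlr2, Tlr4, Tlr7, Tlr8, Tlr9, Tlr13, Cd14, Ly86, Cd180 and Myd88. Of these, 9 matched a row of the deposited table of 32623 genes by symbol. Tlr13 did not, and the row named AABR07039446.2, which RefSeq lists as an older symbol of Tlr13, was described beside the 9 and is called Tlr13 here. The TAE group (3 libraries) came from animals that underwent transarterial embolization, a procedure that shuts off the arterial supply of a liver tumour. The HCC group (3 libraries) was the control and received no treatment. Both groups are labelled liver of Rattus norvegicus in a study of hepatocellular carcinoma (HCC). The labels used here give no strain, sex, age, tumour model, embolic agent, time after embolization or part of the liver sampled. Replicates are labelled biosamples. Nothing ties each to its own animal, and the p-values therefore cover only the spread between these samples, which may be technical.

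Toll-like receptors sense microbial products and material from damaged cells, and in liver they are best known from Kupffer cells and other macrophages. Some sit at the cell surface and bind lipids and lipoproteins, whereas others sit in endosomes and bind nucleic acids after a chaperone has carried them there and proteases have trimmed them. Most signal through the adaptor Myd88 to NF-kB and interferon regulatory factors, which switch on cytokine genes.

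Total counts ran from 14552885 to 16604067 per TAE library and from 13448286 to 14370846 per HCC library. The TAE libraries resembled each other less than the HCC libraries did, with Pearson correlations of log2 CPM, a depth-scaled count, across genes, which are not independent replicates, of 0.935 to 0.969 in TAE and 0.984 to 0.991 in HCC. Hepatocyte markers fitted the labelled tissue in every library: all 8 were measured, and their summed FPKM (fragments per kilobase of exon, scaled to the library's total count) was 9650 to 27758 in TAE and 22075 to 27193 in HCC.

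After embolization the X-linked endosomal receptors Tlr7, Tlr8 and Tlr13, the lipoprotein receptor Tlr2 and the Cd180-Ly86 pair rose, while the lipopolysaccharide receptor Tlr4, its helper Cd14, the DNA receptor Tlr9 and the adaptor Myd88 did not pass the test. With edgeR's quasi-likelihood test, 5 of the 9 genes passed an adjusted p of 0.05, all higher in TAE (Tlr2, Tlr7, Tlr8, Ly86 and Cd180), and Tlr13 passed as well. Among all 14499 genes tested, 2.70% were called higher in TAE. Log2 changes were positive for all 9, and their median was 1.20, against -0.03 over all genes tested. Every TAE library lay above every HCC library in 8 of the 9, Tlr4 being the exception, and this held for 21.9% of all genes tested. Calls depended on the libraries: edgeR called 0 of the 9 without TAE replicate 1 or without HCC replicate 1, 2 or 3, where it called 0% of all genes higher, and 6 and 5 without TAE replicates 2 and 3, where it called 14.6% and 4.82% of all genes higher. DESeq2 called 5 of the 9 with all libraries, where it called 8.90% of all genes higher. It called 5, 6 and 5 without TAE replicates 1 to 3 (4.38%, 14.5% and 7.93% of all genes higher) and 6, 5 and 5 without HCC replicates 1 to 3 (5.34%, 6.35% and 4.19%). Other settings called 5 of the 9 with median-of-ratios scaling (2.94% of all genes higher), no filter (3.51%) and limma at pseudocounts 1 and 0.1 (4.27% and 4.38%), 4 with a mean FPKM of at least 0.5 (2.47%) and 7 with limma sample weights (21.7%). Those weights favoured TAE replicate 1 (2.36) over TAE replicates 2 and 3 (0.225 and 0.226).

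**Figure D1:**
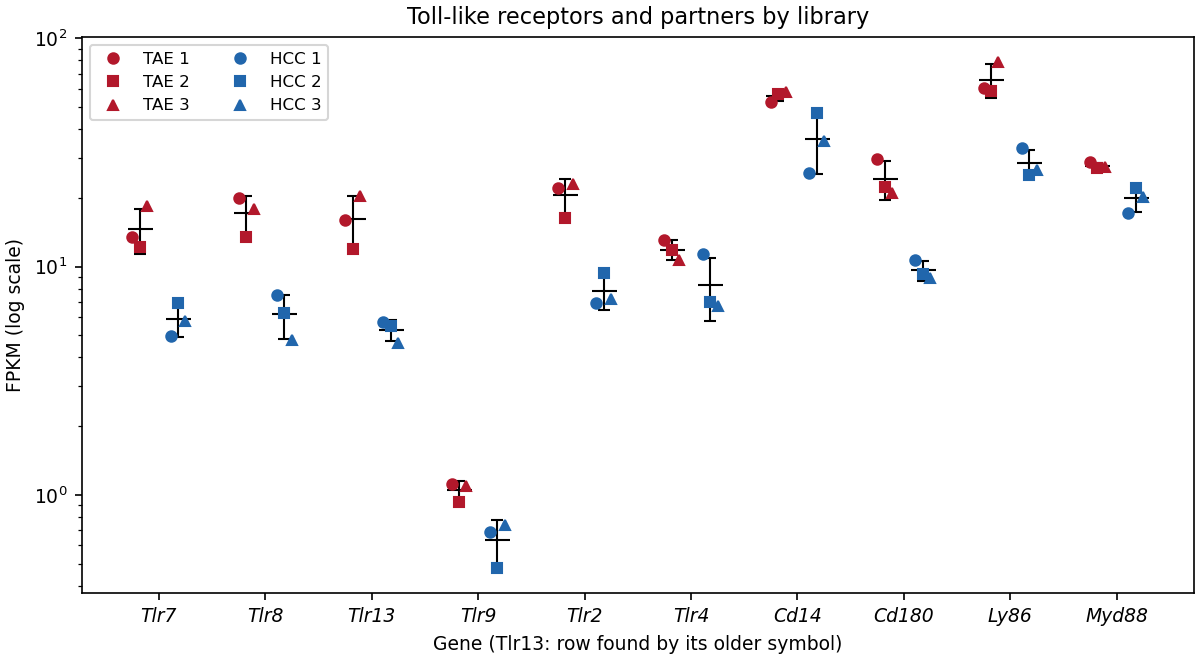
FPKM (log axis) of each gene in the 3 TAE libraries (red, left) and the 3 HCC libraries (blue, right), with the group mean and SD in black. Tlr7, Tlr8, Tlr13, Tlr2, Cd180 and Ly86 stand clear of their HCC values, whereas the groups overlap for Tlr4.

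Tlr7, a receptor for single-stranded RNA in endosomes, lies on chromosome X (gene ENSRNOG00000004249, 28486869 to 28512957, plus strand). Its level was 13.4, 12.1 and 18.3 FPKM in TAE replicates 1 to 3, against 4.96, 6.89 and 5.75 FPKM in HCC replicates 1 to 3. The lowest TAE library thus stood 1.76 times above the highest HCC library. The log2 change was 1.30 ± 0.26 (SE), which passed narrowly (edgeR adjusted p = 0.0497) and did not with a filter of mean FPKM of at least 0.5 (edgeR adjusted p = 0.0516).

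Tlr8, known in human as another receptor for single-stranded RNA, is the next gene along chromosome X (ENSRNOG00000045992, 28539158 to 28562803, plus strand), 26200 bases beyond Tlr7 with 0 genes of the table between them. It had 20.0, 13.4 and 17.9 FPKM in TAE replicates 1 to 3 and 7.47, 6.27 and 4.75 FPKM in HCC replicates 1 to 3. The groups were apart, with TAE replicate 2 the lowest of its group, as for Tlr7. The log2 change of Tlr8 was 1.44 ± 0.25 (edgeR adjusted p = 0.0398). The FPKM ratio of Tlr8 to Tlr7 overlapped between groups, at 0.974 to 1.49 in TAE and 0.826 to 1.51 in HCC (exact permutation test, two-sided p = 0.6, 0.84 adjusted over 6 ratios).

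Tlr13, which in mouse senses bacterial ribosomal RNA and has no human counterpart, also lies on chromosome X (ENSRNOG00000061403, 77212458 to 77234046, plus strand). It had 16.0, 12.0 and 20.3 FPKM in TAE replicates 1 to 3 and 5.69, 5.48 and 4.63 FPKM in HCC replicates 1 to 3. Its log2 change of 1.60 ± 0.27 (edgeR adjusted p = 0.0398) was the largest of the 10 genes, about 3.02-fold, and its estimate overlapped those of Tlr8 and Tlr2 within their standard errors.

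Tlr9, the endosomal receptor for unmethylated CpG DNA (ENSRNOG00000048161, chromosome 8, 114916122 to 114920171, plus strand), was the least abundant member. It had 1.12, 0.93 and 1.09 FPKM in TAE replicates 1 to 3, from 53, 50 and 59 counts, and 0.69, 0.48 and 0.74 FPKM in HCC replicates 1 to 3, from 32, 21 and 34 counts. The groups did not overlap, but the gap between the highest HCC and the lowest TAE library was small. The log2 change of 0.68 ± 0.30 did not pass (edgeR adjusted p = 0.234), and counting error is largest for this gene, since every other member had at least 227 counts in each library.

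The promoters of the 3 X-linked receptors that rose are shown with that of Tlr4, which did not pass, because the letters GAGGAA, the core bound by the myeloid transcription factor PU.1, occur in all 4. RefSeq promoter windows on GRCr8 (250 bases before to 50 after the gene's start) were at hand for 9 of the 10 genes, Ly86 being the other. Each is written 5′ to 3′ on the gene's strand, and capitals mark GAGGAA or its reverse complement TTCCTC.
Tlr7 (GRCr8 chrX:30644176-30644475, plus strand): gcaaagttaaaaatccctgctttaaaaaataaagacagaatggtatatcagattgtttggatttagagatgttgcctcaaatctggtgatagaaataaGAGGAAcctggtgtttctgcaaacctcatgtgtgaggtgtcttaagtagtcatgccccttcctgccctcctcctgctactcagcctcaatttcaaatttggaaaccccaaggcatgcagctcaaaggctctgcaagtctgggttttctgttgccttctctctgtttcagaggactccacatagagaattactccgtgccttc
Tlr8 (GRCr8 chrX:30708476-30708775, plus strand): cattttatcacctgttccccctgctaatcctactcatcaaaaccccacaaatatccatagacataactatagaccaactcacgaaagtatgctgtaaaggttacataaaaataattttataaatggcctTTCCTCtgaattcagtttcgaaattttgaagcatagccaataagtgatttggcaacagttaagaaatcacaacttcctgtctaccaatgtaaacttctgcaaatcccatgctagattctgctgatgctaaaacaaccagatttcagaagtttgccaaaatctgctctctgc
Tlr13 (GRCr8 chrX:75285582-75285881, plus strand): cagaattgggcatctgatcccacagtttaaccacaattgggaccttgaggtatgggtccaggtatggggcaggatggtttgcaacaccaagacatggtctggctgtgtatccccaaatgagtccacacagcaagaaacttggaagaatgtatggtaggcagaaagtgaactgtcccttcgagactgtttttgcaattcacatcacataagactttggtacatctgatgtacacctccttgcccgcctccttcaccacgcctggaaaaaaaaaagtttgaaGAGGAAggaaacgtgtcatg
Tlr4 (GRCr8 chr5:85160997-85161296, plus strand): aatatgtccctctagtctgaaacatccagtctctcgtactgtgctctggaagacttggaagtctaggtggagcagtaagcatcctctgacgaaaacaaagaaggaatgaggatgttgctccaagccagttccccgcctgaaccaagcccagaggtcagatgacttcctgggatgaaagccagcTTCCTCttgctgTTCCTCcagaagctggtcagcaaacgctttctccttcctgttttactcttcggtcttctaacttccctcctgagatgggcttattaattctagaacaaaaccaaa
The match began at base -152 from the start in Tlr7, at -121 in Tlr8 and at 31 in Tlr13, and Tlr4 had matches at -67 and -55. On either strand GAGGAA was present in 6 of the 9 windows (Tlr4, Tlr7, Tlr8, Tlr9, Tlr13 and Cd14) and in 27.5% of 27457 promoter windows of the same length. It thus occurred in genes that rose and in genes that did not pass. It was absent from the windows of Tlr2 and Cd180, which rose, and of Myd88, which did not pass. An NF-kB-like pattern, GGG and TCC with any 4 bases between them, was found on either strand in 2 of the 9 (Tlr2 and Cd14) and in 18.2% of all windows. An interferon response pattern, GAAA and GAAA with any 2 bases between them, was found on either strand in 1 of the 9 (Myd88) and in 3.77% of all windows. In these 9 windows no match of one pattern overlapped a match of another. These are matches of letters only.

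At the cell surface, Tlr2, which binds bacterial lipoproteins together with Tlr1 or Tlr6, rose (ENSRNOG00000009822, chromosome 2, 182840727 to 182846061, minus strand). It had 22.1, 16.4 and 23.1 FPKM in TAE replicates 1 to 3 and 6.90, 9.35 and 7.2 FPKM in HCC replicates 1 to 3. The groups were apart, the lowest TAE value being 1.75 times the highest HCC value. The log2 change was 1.36 ± 0.24 (edgeR adjusted p = 0.0406).

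Tlr4, the receptor for bacterial lipopolysaccharide (ENSRNOG00000010522, chromosome 5, 82587420 to 82601052, plus strand), had 13.0, 11.8 and 10.7 FPKM in TAE replicates 1 to 3 and 11.3, 6.97 and 6.73 FPKM in HCC replicates 1 to 3. HCC replicate 1 reached into the TAE range, and the other two HCC libraries lay well below it. The log2 change was 0.46 ± 0.21 (edgeR adjusted p = 0.254). Without HCC replicate 1 it was 0.73 with DESeq2, which then called it (DESeq2 adjusted p = 0.0314).

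Cd14, which hands lipopolysaccharide to Tlr4 (ENSRNOG00000017819, chromosome 18, 29560365 to 29562153, minus strand), had 52.7, 56.7 and 58.0 FPKM in TAE replicates 1 to 3 and 25.7, 47.2 and 35.5 FPKM in HCC replicates 1 to 3. The TAE libraries were close together and the HCC libraries spread widely below them. The log2 change was 0.58 ± 0.23 (edgeR adjusted p = 0.201). The ratio of Tlr2 to Tlr4 in FPKM was 1.38 to 2.16 in TAE and 0.610 to 1.34 in HCC, without overlap, whereas the ratio of Cd14 to Tlr4 was 4.04 to 5.43 in TAE and 2.28 to 6.77 in HCC. Exact two-sided permutation tests gave p = 0.1 for the first, the smallest that 3 against 3 allows, and p = 0.9 for the second (0.2 and 0.9 when adjusted over 6 ratios). The ratio of Tlr2 to Tlr1 was 1.14 to 1.65 in TAE and 0.700 to 0.998 in HCC, and that of Tlr8 to Tlr9 was 14.4 to 17.8 in TAE and 6.42 to 13.1 in HCC, both without overlap (exact permutation p = 0.1 each, 0.2 adjusted). The ratios without overlap each set a called gene over one not called, and all ratios were chosen after values were seen. Their separation therefore largely restates the calls.

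Cd180, also called RP105, resembles Tlr4 outside the cell but lacks the signalling domain, and Ly86, also called MD-1, is the small protein bound to it. In mouse the pair restrains Tlr4 signalling in macrophages and dendritic cells and supports the response of B cells. Cd180 (ENSRNOG00000010266, chromosome 2, 32820322 to 32833125, plus strand) had 29.6, 22.3 and 20.9 FPKM in TAE replicates 1 to 3 and 10.7, 9.27 and 8.88 FPKM in HCC replicates 1 to 3. Its HCC libraries were tight and all TAE libraries lay at least 1.96 times above them. The log2 change was 1.28 ± 0.16, with the smallest adjusted p of the 10 genes (edgeR adjusted p = 0.0388).

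Ly86 (ENSRNOG00000000137, chromosome 17, 28104589 to 28191436, minus strand) had 60.6, 58.5 and 78.7 FPKM in TAE replicates 1 to 3 and 33.0, 25.2 and 26.6 FPKM in HCC replicates 1 to 3. In FPKM, TAE replicate 3 was the highest for Ly86 and the lowest for Cd180. In log2 CPM relative to the HCC mean, replicate 2 was instead the lowest for Cd180 (1.53, 1.01 and 1.26 in TAE replicates 1 to 3). The log2 change of Ly86 was 1.20 ± 0.22 (edgeR adjusted p = 0.0442). Ly86 was the more abundant partner in every library, its FPKM being 2.05 to 3.77 times that of Cd180 in TAE and 2.72 to 3.09 times in HCC (exact permutation test, two-sided p = 0.7, 0.84 adjusted over 6 ratios).

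Myd88, the adaptor shared by most of these receptors (ENSRNOG00000013634, chromosome 8, 128022473 to 128026841, minus strand), had 28.6, 27.1 and 27.3 FPKM in TAE replicates 1 to 3 and 17.2, 22.1 and 20.2 FPKM in HCC replicates 1 to 3. The groups were apart but close. The log2 change of 0.43 ± 0.15, about 1.35-fold, did not pass (edgeR adjusted p = 0.156), and it passed without TAE replicate 2 (edgeR adjusted p = 0.0434).

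Levels in FPKM were ordered as follows. In TAE, Ly86 (65.9 ± 11.1 FPKM, SD, n = 3) and Cd14 (55.8 ± 2.81) led, followed by Myd88 (27.7 ± 0.83), Cd180 (24.3 ± 4.69), Tlr2 (20.5 ± 3.65), Tlr8 (17.1 ± 3.34), Tlr13 (16.1 ± 4.19), Tlr7 (14.6 ± 3.28), Tlr4 (11.9 ± 1.17) and Tlr9 (1.05 ± 0.10). In HCC, Cd14 (36.1 ± 10.8 FPKM, SD, n = 3) and Ly86 (28.3 ± 4.18) led, followed by Myd88 (19.9 ± 2.48), Cd180 (9.61 ± 0.95), Tlr4 (8.34 ± 2.58), Tlr2 (7.82 ± 1.34), Tlr8 (6.16 ± 1.36), Tlr7 (5.87 ± 0.97), Tlr13 (5.27 ± 0.56) and Tlr9 (0.64 ± 0.14). Neighbours from Myd88 to Tlr4 in TAE, and from Cd180 to Tlr13 as well as the first pair in HCC, overlapped in range. Tlr4 ranked 9 among the 10 genes in TAE and 5 in HCC.

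Of the other Toll-like receptors, none of the 6 measured passed (0 higher, 0 lower, median log2 change 0.55). Tlr1, a partner of Tlr2, had 17.2, 14.4 and 14.0 FPKM in TAE replicates 1 to 3 and 9.86, 9.37 and 8.07 FPKM in HCC replicates 1 to 3, a log2 change of 0.69 ± 0.15 (edgeR adjusted p = 0.0575). Tlr6, the other partner and a close copy of Tlr1, so that the split of their reads is uncertain, had a log2 change of 0.96 ± 0.29 (edgeR adjusted p = 0.116). Tlr3, the receptor for double-stranded RNA that signals without Myd88, had 9.65, 7.08 and 6.72 FPKM in TAE replicates 1 to 3 and 8.25, 6.02 and 5.76 FPKM in HCC replicates 1 to 3, with overlapping groups (log2 change 0.18 ± 0.20). Summed over 12 receptors, FPKM was 121, 97.7 and 119 in TAE replicates 1 to 3 and 61.9, 55.8 and 48.5 in HCC replicates 1 to 3. Tlr2, Tlr7, Tlr8 and Tlr13, grouped here because they were called, together made up 58.8%, 55.2% and 66.7% of that sum in TAE replicates 1 to 3 and 40.4%, 50.1% and 46.1% in HCC replicates 1 to 3. Tlr4 took 10.7%, 12.1% and 8.95% in TAE replicates 1 to 3 and 18.3%, 12.5% and 13.9% in HCC replicates 1 to 3.

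**Figure D2:**
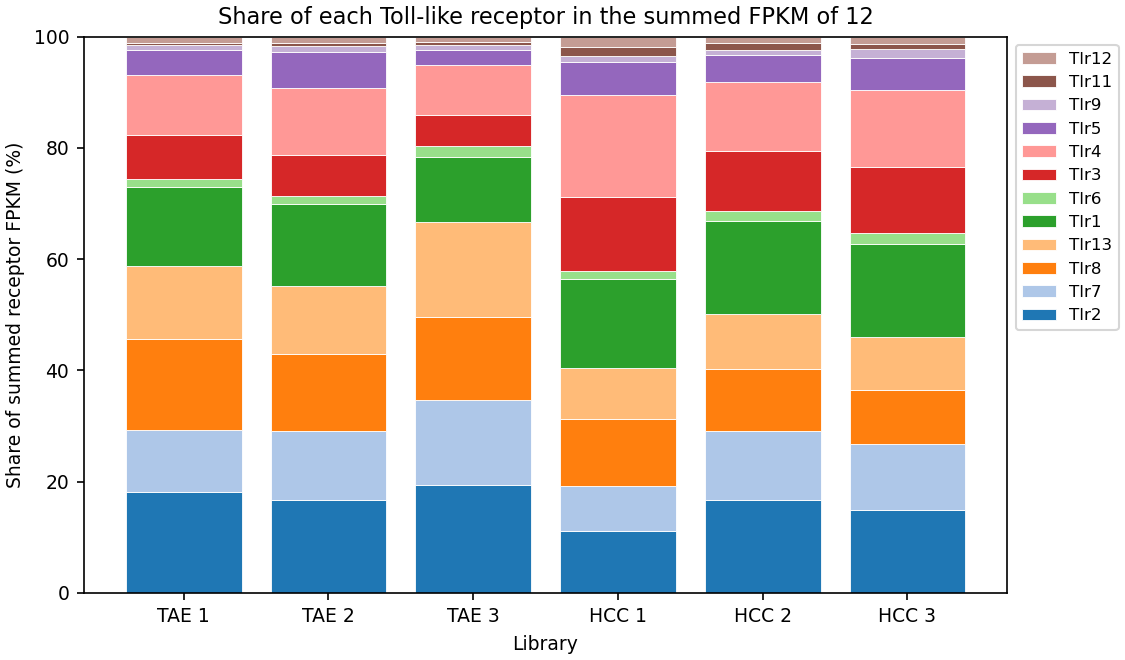
Share (%) of each of 12 Toll-like receptors in their summed FPKM, by library, TAE on the left and HCC on the right. The lower 4 segments (Tlr2, Tlr7, Tlr8 and Tlr13) end between 55.2% and 66.7% in TAE and between 40.4% and 50.1% in HCC.

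Of 10 accessory and trafficking proteins measured, which include chaperones, lysosomal proteases and transporters and the secreted lipopolysaccharide-binding protein Lbp, 3 rose, 0 fell and 7 did not pass (median log2 change 0.78). Unc93b1, the chaperone that brings the endosomal receptors to endosomes, had 83.3, 69.3 and 104 FPKM in TAE replicates 1 to 3 and 30.0, 28.6 and 26.7 FPKM in HCC replicates 1 to 3, a log2 change of 1.56 ± 0.23 (edgeR adjusted p = 0.0388). Ctss, the lysosomal protease cathepsin S, had 402 ± 142 FPKM in TAE and 126 ± 17.6 FPKM in HCC (SD, n = 3 each), a log2 change of 1.67 ± 0.33. Slc15a3, a lysosomal transporter of histidine and peptides, had 13.4 ± 1.44 FPKM in TAE and 6.50 ± 0.20 FPKM in HCC (SD, n = 3 each), a log2 change of 1.00 ± 0.19. Hsp90b1, a general folding chaperone of Toll-like receptors, had a log2 change of -0.15 ± 0.14.

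Genes downstream of the receptors were counted by role, beside the 2.70% of all genes called higher. None of 17 adaptors and kinases passed (0 higher, 0 lower, median log2 change 0.08). Log2 changes were positive for 9 of the 17, the largest being that of the adaptor Ticam2, at 1.31 ± 0.28 (edgeR adjusted p = 0.0547). In 6 of the 17 every TAE library lay above every HCC library, as in 21.9% of all genes tested. Irak1, a kinase that binds Myd88, averaged 45.8 ± 8.74 FPKM in TAE and 47.0 ± 0.16 FPKM in HCC, and Pik3ap1, an adaptor that links the receptors to PI3 kinase, 33.9 ± 3.43 FPKM in TAE and 23.9 ± 1.27 FPKM in HCC (SD, n = 3 each). Of 11 transcription factors, 2 rose and 9 did not pass (median log2 change 0.28). Irf5, which acts directly below Myd88, had 31.4, 26.1 and 24.3 FPKM in TAE replicates 1 to 3 and 11.9, 10.4 and 9.33 FPKM in HCC replicates 1 to 3, a log2 change of 1.32 ± 0.15 (edgeR adjusted p = 0.0388). Irf8, a factor of monocyte and dendritic cell development, had a log2 change of 0.88 ± 0.14 (edgeR adjusted p = 0.0388). Rela, the main NF-kB subunit, had a log2 change of -0.13 ± 0.12. None of 11 inhibitors passed (0 higher, 0 lower, median log2 change 0.13). Nfkbia, the NF-kB inhibitor that NF-kB itself induces, had a log2 change of 0.13 ± 0.12, and Tnip1, a partner of the A20 deubiquitinase, 0.48 ± 0.14.

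Of 19 target cytokines and enzymes, 4 had too few counts to be tested, among them Tnf at 0.04 FPKM in every TAE library and 0 to 0.09 FPKM in HCC, and of the other 15, 1 rose and 14 did not pass (median log2 change 0.25). The gene that rose was Acod1, which makes itaconate in activated macrophages, with 26.2, 28.5 and 31.3 FPKM in TAE replicates 1 to 3 and 15.8, 14.2 and 12.6 FPKM in HCC replicates 1 to 3 (log2 change 0.98 ± 0.17, edgeR adjusted p = 0.0406). Il1b, a main inflammatory cytokine, had 42.5, 62.7 and 39.8 FPKM in TAE replicates 1 to 3 and 38.6, 43.7 and 48.8 FPKM in HCC replicates 1 to 3, with overlapping groups (log2 change 0.07 ± 0.16). Il6 and the monocyte chemokine Ccl2 had log2 changes of -0.12 ± 0.46 and -0.36 ± 0.26. Ccl3 and Ccl4 had 1.20 ± 0.32 and 1.04 ± 0.36, with every TAE library above every HCC library (edgeR adjusted p = 0.0897 and 0.157). Il1a went the other way, at -0.54 ± 0.25, with every TAE library below every HCC library. Of the 15, 10 had positive log2 changes. In 4 every TAE library lay above every HCC library, as in 21.9% of all genes tested. Of 8 endogenous ligands measured, 1 rose and 7 did not pass (median log2 change 1.27). It was Bgn, the matrix proteoglycan biglycan, known to engage Tlr2 and Tlr4, with 398, 198 and 260 FPKM in TAE replicates 1 to 3 and 87.9, 116 and 87.6 FPKM in HCC replicates 1 to 3 (edgeR adjusted p = 0.0453). Over all 7 lists of other pathway genes, 7 of 78 tested rose, where 2.70% of all genes did, 0 fell and the median log2 change was 0.33. Counted in either direction, DESeq2 called 20 pathway genes, beside 1667 of all 15756 genes it tested. EdgeR called 0 pathway genes without TAE replicate 1 or any 1 HCC replicate, where it called at most 1 gene of all tested.

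**Figure D3:**
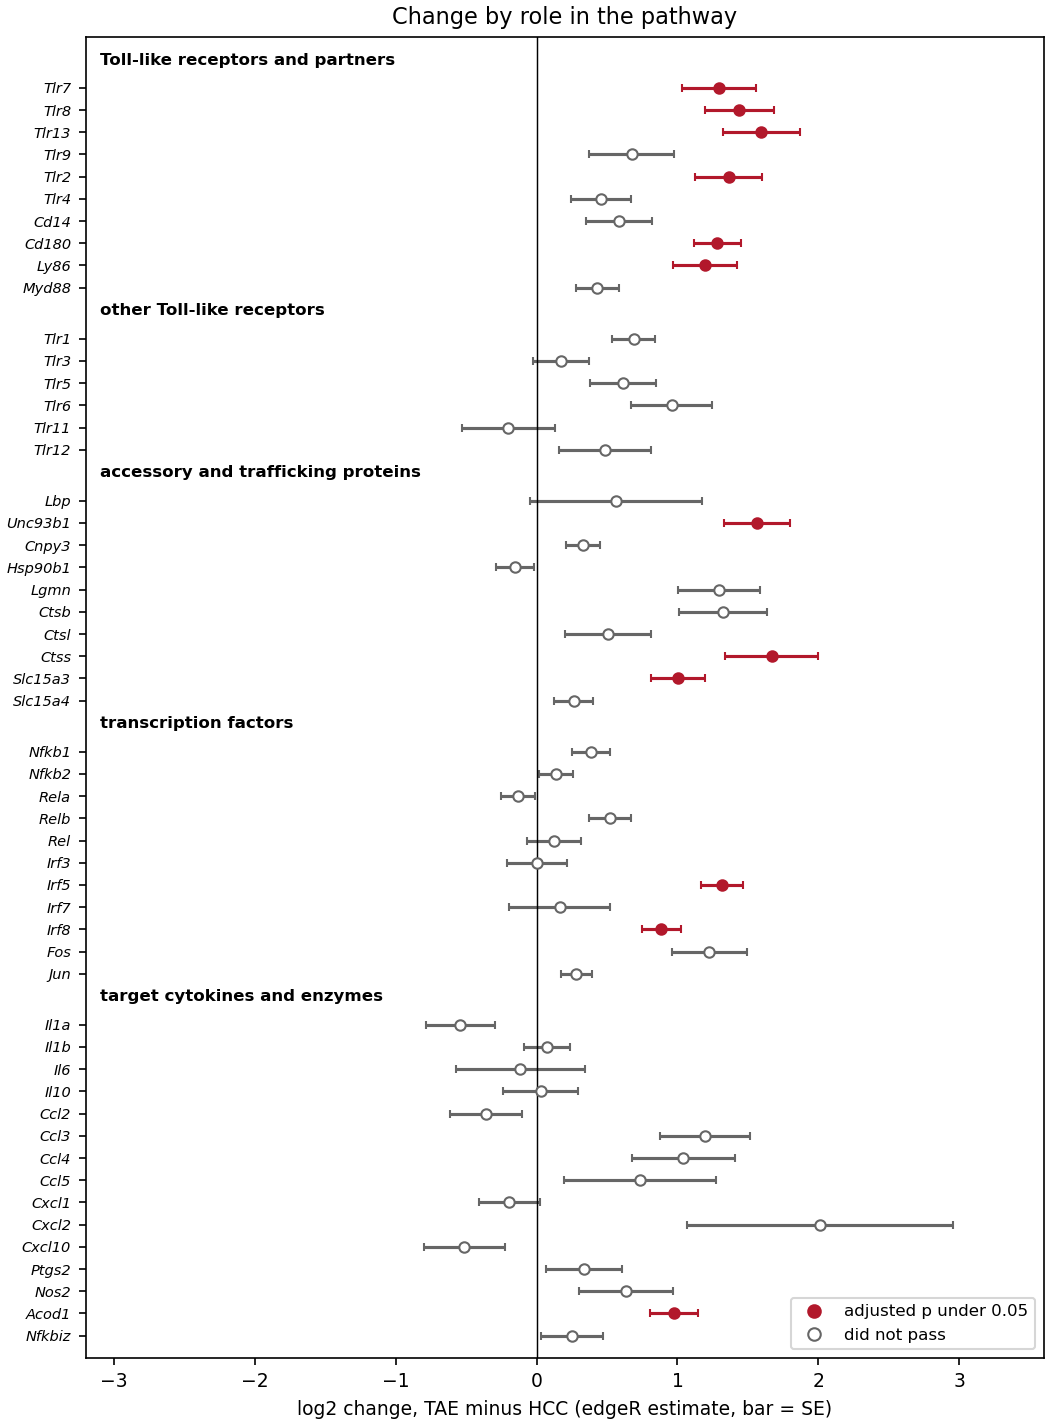
Log2 change, TAE minus HCC, with its standard error, for the Toll-like receptors and partners and for 4 lists of pathway genes. Filled red points passed an adjusted p of 0.05 (edgeR), and they include Unc93b1, Ctss, Slc15a3, Irf5, Irf8 and Acod1 but none of the other receptors.

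Part of the macrophage and monocyte markers rose as well, whereas no Kupffer cell marker passed. In bulk tissue, more cells of a type and more RNA per cell cannot be told apart. Of 12 macrophage and monocyte markers, 8 rose and 4 did not pass (median log2 change 1.29), and their summed FPKM was 3523 to 4523 in TAE and 1083 to 1386 in HCC, with Lyz2 and Cd68 the most abundant. Cd163, a scavenger receptor of macrophages, had a log2 change of -0.10 ± 0.31. Spi1, which encodes PU.1, rose by a log2 change of 1.22 ± 0.18 (edgeR adjusted p = 0.0388). Markers of resident Kupffer cells did not pass (0 of 7, median log2 change -0.13), with a summed FPKM, led by Id3 and Cd5l, of 270, 262 and 458 in TAE replicates 1 to 3 and 416, 331 and 346 in HCC replicates 1 to 3. TAE replicate 3 stood apart, above every HCC library, while TAE replicates 1 and 2 lay below them all.

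Other cell types that carry these receptors were also looked at by their markers. B cell markers, led by Cd79a and Cd79b, summed to 3.94 to 11.7 FPKM in TAE and 3.37 to 4.41 FPKM in HCC, and plasmacytoid dendritic cell markers, led by Il3ra and Runx2, to 26.0 to 32.8 FPKM in TAE and 23.0 to 26.1 FPKM in HCC. In both lists 0 genes passed (of 7 and 5 tested), and Ly6d, a plasmacytoid dendritic cell marker, was at 0 in every HCC library and in TAE replicates 1 and 3. Of 7 dendritic cell markers tested, Itgax alone rose, and the summed FPKM, led by Batf3 and Itgax, was 36.3 to 44.5 in TAE and 20.5 to 26.1 in HCC. Neutrophil markers summed to 172 to 646 FPKM in TAE and 99.4 to 106 FPKM in HCC, led by Lcn2 and Csf3r, but 5 of the 10, among them Mpo and Ltf, were too low to be tested and 0 of the other 5 passed. Lcn2 made up most of that sum, with 397, 146 and 624 FPKM in TAE replicates 1 to 3 and 86.0, 81.9 and 87.9 FPKM in HCC replicates 1 to 3. Csf3r had a log2 change of 0.44 ± 0.18 with overlapping groups. Log2 changes were positive for 4 of the 5 tested. T and NK cell markers, led by Cd8a and Cd4, summed to 264 to 427 FPKM in TAE and 131 to 187 FPKM in HCC, endothelial markers, led by Eng and Cdh5, to 69.9 to 120 FPKM in TAE and 56.7 to 66.4 FPKM in HCC, and stellate cell and fibroblast markers, led by Col3a1 and Col1a1, to 1137 to 3018 FPKM in TAE and 461 to 727 FPKM in HCC, with 0 genes passing in each. The stellate cell and fibroblast list had a median log2 change of 1.26, with 8 of 8 positive. In 6 of its 8 genes every TAE library lay above every HCC library, as in 21.9% of all genes tested. This held for 3 of 7 endothelial markers, 3 of 8 T and NK cell markers and 2 of the 5 neutrophil markers tested. In the T and NK cell list (median log2 change 0.80), Cd8a and Cd4 had log2 changes of 1.25 ± 0.28 and 1.33 ± 0.31, whereas the T cell receptor components Cd3e, Cd3d and Cd3g had 0.10 ± 0.35, 0.36 ± 0.45 and 0.34 ± 0.40, with overlapping groups. The hepatocyte list, led by Alb and Tf, had a median log2 change of -0.56 and 0 of 8 passing, and its summed FPKM was 12686, 9650 and 27758 in TAE replicates 1 to 3 and 22075, 25617 and 27193 in HCC replicates 1 to 3, so that TAE replicate 3 again stood apart from the other two. The part of these cell types in the changes of the receptors was not tested.

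Levels were also set against the macrophage markers of the same library. Divided by the geometric mean of the 12 markers, a measure added after the data were seen, Tlr7 stood at 0.146, 0.175 and 0.171 in TAE replicates 1 to 3 and 0.141, 0.174 and 0.179 in HCC replicates 1 to 3, so that the groups overlapped. Tlr2, Tlr8, Cd180 and Ly86 overlapped too, with log2 differences of 0.08, 0.16, 0.01 and -0.09, while Tlr13 was higher in every TAE library (0.27), as were 1.10% of all genes tested. Cd14 and Tlr9 had log2 differences of -0.64 and -0.575, also with overlapping groups. Tlr4 and Myd88 were lower in every TAE library than in any HCC library, by log2 differences of -0.77 and -0.83, as were 83.1% of all genes tested. Of the 12 markers 8 rose (median log2 change 1.29), so both shares depend on the divisor. Nothing particular to Tlr13, Tlr4 or Myd88 is read from them. Myd88 stood at 0.312, 0.390 and 0.254 in TAE replicates 1 to 3 and 0.491, 0.560 and 0.629 in HCC replicates 1 to 3. Exact two-sided permutation tests gave p = 0.1 for Tlr4, Myd88 and Tlr13, the smallest that 3 against 3 allows, and 0.333 after adjustment over the 10 genes. Divided by the summed marker FPKM, of which Lyz2 took 62.3% to 79.2%, all 10 genes had negative log2 differences, from -1.29 for Myd88 to -0.19 for Tlr13, and 8 of them were lower in every TAE library (exact permutation p = 0.1 each, 0.125 adjusted). The same held for 91.4% of all genes tested, and the mean marker sum was 3.43 times as high in TAE as in HCC, so nothing particular to the 10 genes is read from this count.

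**Figure D4:**
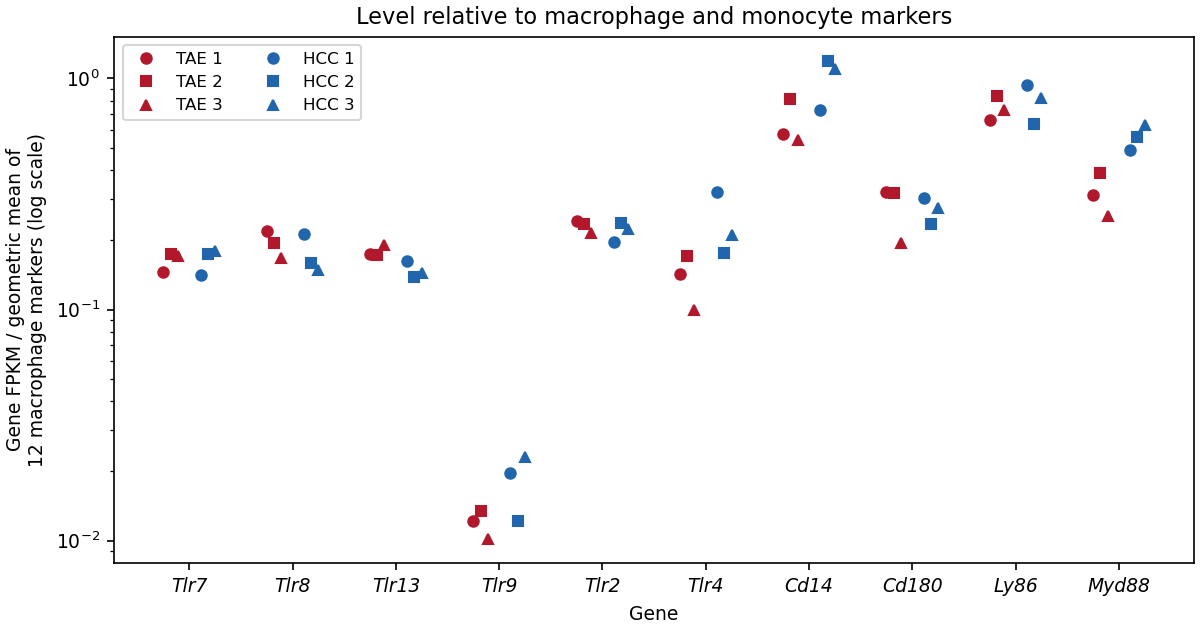
FPKM of each gene divided by the geometric mean FPKM of 12 macrophage and monocyte markers in the same library (log axis), TAE in red on the left and HCC in blue on the right. Groups overlap for Tlr7, Tlr8, Tlr9, Tlr2, Cd14, Cd180 and Ly86. The TAE libraries lie above the HCC libraries for Tlr13 and below them for Tlr4 and Myd88.

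Among the TAE libraries, replicate 2 was the lowest in FPKM for 6 of the 9 genes, the others being Tlr4, Cd14 and Cd180. In log2 CPM, replicate 2 was the lowest for all 9 and for Tlr13. For Cd14 the margin was slight, at 0.494 for replicate 1 and 0.492 for replicate 2 after subtracting the HCC mean. On the log2 CPM scale, relative to the HCC mean, the median of the 9 was 1.01, 0.85 and 1.26 in TAE replicates 1 to 3 and 0.11, 0.04 and -0.06 in HCC replicates 1 to 3. The 5 genes whose profile over the 6 libraries was nearest to this median, among 11720 with a mean of at least 1 FPKM, were Card9, Sh3bgrl3, Lyn, Slc29a3 and Tmem229b, with root mean square differences of 0.071 to 0.082. Card9, an adaptor of C-type lectin receptors, had 6.64, 5.86 and 7.13 FPKM in TAE replicates 1 to 3 and 3.10, 3.11 and 2.73 FPKM in HCC replicates 1 to 3. Lyn, a Src family kinase of myeloid and B cells, had 75.5, 64.1 and 69.4 FPKM in TAE replicates 1 to 3 and 33.7, 32.9 and 32.7 FPKM in HCC replicates 1 to 3.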

How the data were processed

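The authors deposited 1 table with raw read counts and FPKM per gene and library, per the file headers. Deposited FPKM equals the count per kilobase of exonic size and library total (100% of values within 0.006 when recomputed). Libraries were poly(A)-selected, strand-specific and paired-end, per the labels' protocols. The build mRatBN7.2 comes from the submitters' processing notes, but gene ends on chromosome 1 reach 282724300, beyond that chromosome in mRatBN7.2, so gene coordinates are printed as the table gives them and their build is not settled. Promoters are RefSeq windows on GRCr8. The sources used here name no aligner, counter or use of strand. No gene of the table overlapped a member.

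Counts were tested with edgeR 4.0.16 (R 4.3.3, TMM, filterByExpr, quasi-likelihood, TAE minus HCC, two-sided) with Benjamini-Hochberg adjustment over 14499 genes, and all 10 genes passed the filter. Standard errors are the log2 change over the square root of F. The code was tested on simulated counts. Alternatives used DESeq2 1.42.0 and limma 3.58.1. Replicates differed by more than counting noise (lowest chi-square over its degrees of freedom 5.50). No label pairs the samples by replicate number. Correlations of same-numbered deviations were 0.10, -0.21 and 0.03, which cannot exclude a pairing with so few libraries. The members and gene lists were chosen with earlier results of these data known. Of 87 pathway genes listed, 82 matched a symbol and 78 passed the filter. Named from each list were the genes that passed or, if none did, the 2 most abundant, with the 2 most abundant of each marker list. Tlr6, Hsp90b1, Ticam2, Rela, Tnf, Il1a, Il1b, Il6, Ccl2, Ccl3, Ccl4, Spi1, Cd163, Lbp, Cd3e, Cd3d, Cd3g, Ly6d, Mpo and Ltf, and the ratios, were chosen after values were seen.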

Additional observations from a re-analysis of the deposited data

How the results depend on the processing

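All 9 genes and Tlr13 kept positive log2 changes under every alternative fit run. The 5 called genes stayed called with median-of-ratios scaling, DESeq2, no filter, both limma fits on log2(FPKM + pseudocount) and sample weights, and with a mean FPKM of at least 0.5 except Tlr7, which left 4 of the 9. Sample weights called 7, adding Tlr4 and Myd88. The weights were 2.36, 0.225 and 0.226 for TAE replicates 1 to 3, so the TAE side of that fit rested mostly on replicate 1. With the replicate number as a block, edgeR called 0 genes of all tested, 0 of the 9 and 0 pathway genes (2984 genes had an unadjusted p under 0.05, 8 of the 9 among them). No label says that the numbers pair the samples, and whether they do is not known. The count over all genes was 437 in the main test, 1667 with DESeq2, 829 with no filter, 701 and 709 with limma at pseudocounts 1 and 0.1, and 5975 with sample weights. For pathway genes the count was 7, and 20, 13, 12, 12 and 38 in the same order. Leaving out 1 library gave 0 to 3569 genes, 0 to 6 of the 9 and 0 to 29 pathway genes with edgeR, and 697 to 4118 (757, 4118 and 2126 without TAE replicates 1 to 3, and 871, 1017 and 697 without HCC replicates 1 to 3), 5 to 6, and 12 to 33 (13, 33, 19, 12, 15 and 13 in that order) with DESeq2, a check added after seeing the data. Against the geometric mean of the macrophage markers in place of their sum, the log2 difference changed sign for Tlr2 (0.077), Tlr8 (0.164), Tlr13 (0.271) and Cd180 (0.0114), and the sum is mostly Lyz2. Leaving out 1 library changed the sign of the ratio Ly86 over Cd180 (-0.339 to 0.101), Tlr8 over Tlr7 (-0.00558 to 0.434) and Cd14 over Tlr4 (-0.339 to 0.4475), as log2 differences. The causes were not tested. Depth limits Tlr9 most.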
